A study of Mus musculus with 6 samples.

Results

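Transcripts of 9 early genes were followed in bone marrow cells with high activity of aldehyde dehydrogenases, a sorted fraction called ALDHbr. The genes are Egr1, Nr4a1, Klf2, Klf4, Klf6, Ier2, Ier3, Ier5 and Btg2, taken by symbol from a table of 21606 genes. The 9 were chosen by their family (EGR, NR4A, KLF and IER, with Btg2) and by their counts in the male and female libraries, with some rising and some flat between the sexes. Their differences between the sexes are therefore a description: no p-value is printed for a single gene of the 9, and calls from the whole-table test are listed without support being drawn from them. The cells came from wild-type C57BL/6 mice, a common inbred strain, with 3 libraries from females and 3 from males. No agent was given per the labels, and no age of the mice is stated there. Nothing in the labels ties a replicate to an animal of its own. The p-values below therefore cover the spread among these 6 libraries, which could be technical.

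Immediate-early genes are transcribed within minutes of a stimulus from factors already present in the cell, before any new protein is made. EGR1, the KLF proteins and NR4A1 are transcription factors with zinc fingers, the IER proteins are mostly small regulators of growth and survival, and BTG2 restrains proliferation and speeds removal of mRNA tails. In blood-forming tissue, EGR1 and KLF2 are known for keeping cells quiescent, KLF4 and NR4A1 for the monocyte lineage.

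Libraries were made with BRB-seq, a bulk method that counts the 3' ends of transcripts in pooled, barcoded samples. They held 1199551 to 1475224 counts in females and 679724 to 880074 in males. Counts were scaled by TMM and are given as normalised CPM, counts per 1000000 scaled counts of the library. The 7 immature myeloid markers, among them Mpo and Prtn3, summed to between 15110 and 15782 CPM in females and between 13535 and 14605 in males. Male replicate 2 stood apart on the first principal component, and male replicate 1 had a mean correlation of log2 CPM of 0.960 with the female libraries and 0.951 with the other males. The edgeR quasi-likelihood test called 36 of 8460 genes higher in male cells and 13 lower, at a Benjamini-Hochberg adjusted level of 0.05. Leaving out male replicate 1 gave 337 and 78, leaving out male replicate 3 gave 19 and 4, and leaving out female replicate 2 gave 24 and 8. They were 56 and 22 with the replicate number as a block. Scaled by library size only they were 29 and 23, so that 55.8% of calls were higher in males in place of 73.5%.

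RefSeq start regions (GRCm38.p6) were at hand for 7 of the 9 genes, all but Egr1 and Ier2. The 250 bases before the start are printed for 2 pairs of like-named genes whose levels differed in how they compared between the sexes (Klf2 with Klf4, Ier3 with Ier5) and for Btg2. Capitals mark every match, on either strand, to the motifs searched. These were the CArG box, the MEF2 site, the cyclic AMP response element (CRE, TGACGTCA), its core TGACG, the GC box GGGCGG, the EGR site GCGTGGGCG, CCAAT and TATAAA; the CRE holds TGACG on both strands. The MEF2 site was added after the Klf2 sequence had been read.
Klf2 (chr8:72318812-72319061, plus strand): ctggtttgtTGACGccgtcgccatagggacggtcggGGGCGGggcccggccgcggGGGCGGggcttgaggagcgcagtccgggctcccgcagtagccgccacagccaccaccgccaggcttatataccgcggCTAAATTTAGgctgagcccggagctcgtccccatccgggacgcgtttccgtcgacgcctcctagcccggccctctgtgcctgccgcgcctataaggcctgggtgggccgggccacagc
Klf4 (chr4:55532476-55532725, minus strand): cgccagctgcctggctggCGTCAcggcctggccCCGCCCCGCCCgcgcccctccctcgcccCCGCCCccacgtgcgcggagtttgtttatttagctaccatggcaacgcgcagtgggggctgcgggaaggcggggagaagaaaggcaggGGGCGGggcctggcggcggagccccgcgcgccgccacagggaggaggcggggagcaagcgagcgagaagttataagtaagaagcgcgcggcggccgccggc
Ier3 (chr17:35821463-35821712, plus strand): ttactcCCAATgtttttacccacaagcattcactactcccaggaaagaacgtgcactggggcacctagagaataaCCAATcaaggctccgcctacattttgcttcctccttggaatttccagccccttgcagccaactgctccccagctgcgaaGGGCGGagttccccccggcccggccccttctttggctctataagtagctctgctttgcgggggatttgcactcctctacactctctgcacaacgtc
Ier5 (chr1:155099637-155099886, minus strand): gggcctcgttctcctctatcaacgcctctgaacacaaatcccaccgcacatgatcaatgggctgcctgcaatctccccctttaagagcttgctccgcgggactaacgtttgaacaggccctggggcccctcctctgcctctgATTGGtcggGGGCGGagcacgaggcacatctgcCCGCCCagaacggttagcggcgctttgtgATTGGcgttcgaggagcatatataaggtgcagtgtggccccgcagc
Btg2 (chr1:134079156-134079405, minus strand): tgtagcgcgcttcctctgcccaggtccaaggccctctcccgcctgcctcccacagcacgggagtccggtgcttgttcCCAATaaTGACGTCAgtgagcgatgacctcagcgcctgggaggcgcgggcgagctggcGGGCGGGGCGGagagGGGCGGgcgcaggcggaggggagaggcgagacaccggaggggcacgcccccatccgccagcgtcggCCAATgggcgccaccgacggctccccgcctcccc
All 7 regions held the GC box, found in 59.4% of the regions of tested genes and 32.7% of all regions. The core TGACG was in 4 of the 7 (Klf2, Klf4, Btg2 and Nr4a1, where it occurred 4 times), against 28.6% of the regions of tested genes. The whole CRE was in Btg2, as in 2.82% of those regions, and the MEF2 site in Klf2, as in 1.37%. CCAAT was in Klf6, Ier3, Ier5 and Btg2, against 35.3%. No CArG box, EGR site or TATAAA was in the 7 regions, where the shares in tested genes were 0.984%, 1.02% and 5.93%. Shares over all regions were 17.8% for TGACG, 1.55% for the CRE, 2.92% for the MEF2 site, 33.8% for CCAAT, 1.47% for the CArG box, 0.536% for the EGR site and 12.4% for TATAAA.

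Of the 9 genes, 8 had enough counts to be tested and Nr4a1 did not. The edgeR test over all genes called Egr1, Klf2 and Ier3 higher in males, Ier3 having entered it only through its male levels. It called none lower, and Klf4, Klf6, Ier2, Ier5 and Btg2 did not pass; 0.426% of all tested genes were called higher in males and 0.154% higher in females. DESeq2 and limma-voom also called 3 of the 8 higher in males and 0 lower, and at an unadjusted p under 0.05 edgeR had 5 higher and 0 lower, where 6.83% and 4.50% of all tested genes were. In 6 of the 9 genes, Nr4a1 included, every male library lay above every female one, which held for 7.57% of all tested genes; in none did every female library lie above every male one, against 8.03%. These calls and shares restate the comparison that was known when the genes were chosen, and nothing is read from them. Summed over the 9 genes, the level was 1189, 1011 and 1044 CPM in female replicates 1 to 3 and 1752, 1279 and 1649.6 CPM in the male ones. In these bulk samples a change in the number of cells that hold a transcript and a change in its amount per cell cannot be told apart.

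**Figure D1:**
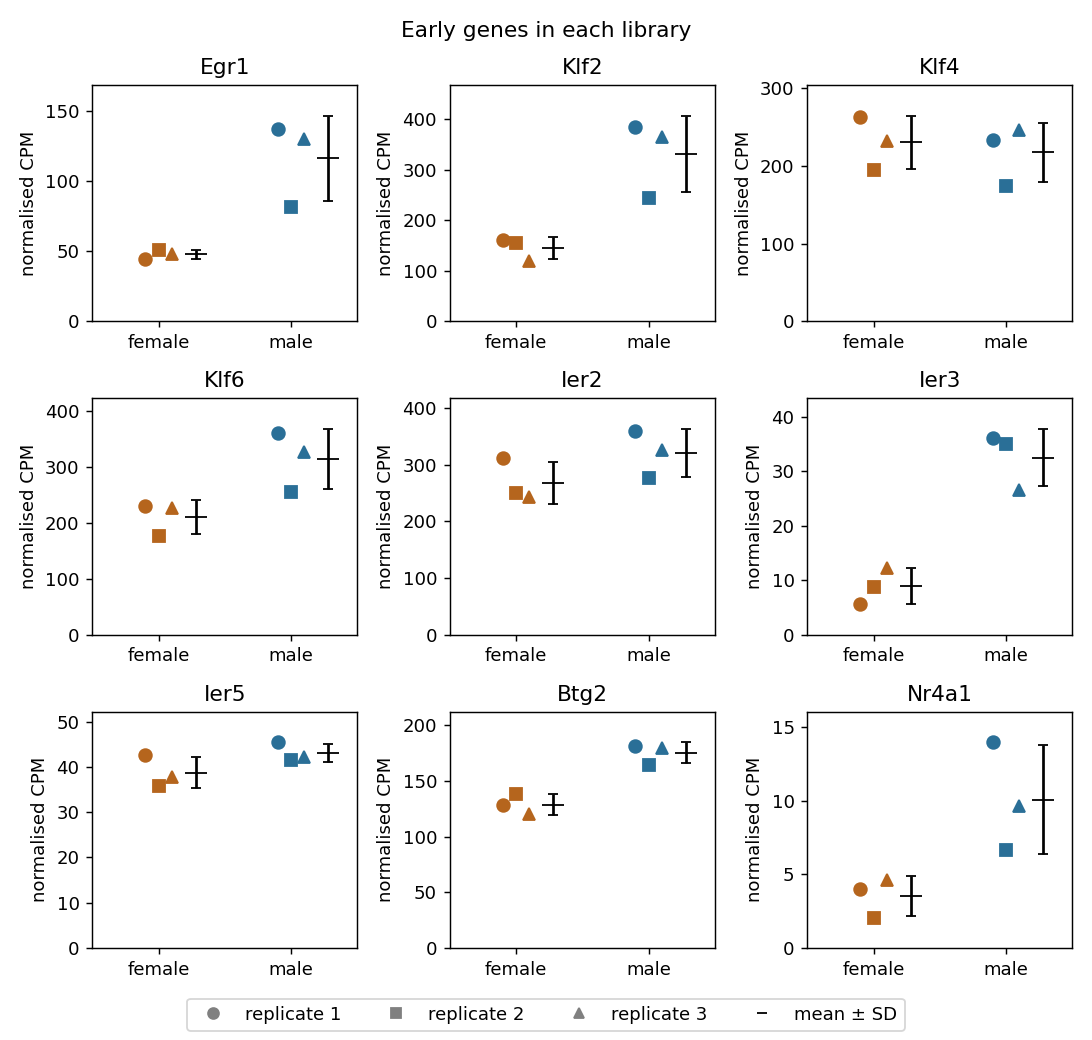
Level of each of the 9 genes in each library, as normalised CPM on axes that start at 0 (different scale per gene); symbols give the replicate number, and bars the mean ± SD of 3 libraries of a sex. Egr1, Klf2, Klf6, Ier3, Btg2 and Nr4a1 have all male points above all female points, while the points of Klf4, Ier2 and Ier5 overlap.

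Egr1 (chromosome 18, 34859823 to 34864984, GRCm38) encodes the zinc finger factor of its family that growth factors and stress induce within minutes. Its level was 44.3, 50.8 and 48.5 CPM in female replicates 1 to 3 and 137, 81.5 and 130.1 CPM in the male ones. The female libraries were close to each other, and the lowest male library was 1.60 times the highest female one. The mean rose from 47.9 ± 3.30 CPM (SD, n = 3) to 116 ± 30.4, a log2 fold change of 1.31 ± 0.17 (SE). In raw counts the sum was 193 in females and 275 in males, although the female libraries were 1.65 times as deep on average.

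Nr4a1, the gene of an orphan nuclear receptor also known as NUR77, had few counts. Female replicates 1 to 3 held 5, 3 and 6 of its counts, and male replicates 12, 4 and 8. As levels these were 4.03, 2.03 and 4.62 CPM against 13.98, 6.65 and 9.64 CPM. Per scaled library size the male sum was 3.01 times the female sum, with an exact 95% counting interval from 1.49 to 6.29 that covers counting error only. Its relatives Nr4a2 and Nr4a3 were not tested for lack of counts, with 45 and 1 in all 6 libraries; Egr2, Egr3 and Egr4 had 7, 4 and 2.

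Klf2, which encodes a factor of quiescent lymphocytes and of endothelium under flow, had 160.3, 154 and 120.1 CPM in female replicates 1 to 3. The male libraries had 384, 244 and 364 CPM, so the lowest of them was 1.53 times the highest female one. Female libraries averaged 145 ± 21.7 CPM (SD, n = 3) and male ones 331 ± 75.6, and the log2 fold change was 1.20 ± 0.15 (SE).

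Klf6, a broadly expressed relative induced by injury and in activated macrophages, had 229.5, 176 and 226 CPM in females and 359.9, 254 and 327 CPM in males. Here too the sexes did not overlap, but the gap was narrow, the lowest male library being 1.11 times the highest female one. The log2 fold change was 0.59 ± 0.14, with a 95% interval from 0.30 to 0.88, and did not pass. It did pass with the replicate block (0.57), without a filter (0.56), with the stricter filter (0.59), and with either male replicate 1 (0.48) or male replicate 2 (0.71) left out.

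Klf4, a factor of monocytes and one of the genes used to reprogram cells to pluripotency, did not pass. Its level was 263, 195 and 232 CPM in females and 233, 175 and 246 CPM in males, with the 2 sexes interleaved. Means were 230.3 ± 34.2 and 218 ± 37.9 CPM (SD, n = 3), and the log2 fold change was -0.07 with a 95% interval from -0.36 to 0.23. Its sign changed without female replicate 1 (0.039) and without male replicate 2 (0.060).

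Among the IER genes, Ier3, which encodes a stress-inducible regulator of cell survival, differed most between the sexes. It had 5.64, 8.81 and 12.3 CPM in female replicates 1 to 3, from 7, 13 and 16 counts. The male libraries had 36.1, 34.9 and 26.5 CPM, from 31, 21 and 22 counts, so the lowest male library was 2.15 times the highest female one. Ier3 averaged 8.92 ± 3.34 CPM (SD, n = 3) in females and 32.5 ± 5.23 in males, and its log2 fold change was 1.84 ± 0.30 (SE). Female replicates 1 and 2 lay below the level that the filter on low counts asks for. Ier3 therefore came into the test only through its male levels, which were needed for it to be tested at all. The counting interval of the ratio of sums, 3.61, ran from 2.39 to 5.53.

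Ier2, which encodes a small nuclear protein, had 311, 249.9 and 242 CPM in females and 359.9, 276 and 325 CPM in males. Female replicate 1 lay above male replicate 2, so the sexes overlapped. The log2 fold change was 0.27 ± 0.13 (SE), with a 95% interval from -0.01 to 0.54. Ier5, whose protein acts with the heat-shock factor HSF1, had 42.7, 35.9 and 37.7 CPM in females and 45.4, 41.6 and 42.2 CPM in males. Its log2 fold change was 0.16, with a 95% interval from -0.23 to 0.55, and both sexes again overlapped. The interval of Ier5 ends below that of Ier3, which starts at 1.22; this contrast was seen before the genes were picked and is a description.

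Btg2, which encodes a partner of the CCR4-NOT deadenylase and an early target of p53, had a small and even difference. Its level was 128, 138 and 120.1 CPM in females and 182, 165 and 179.5 CPM in males. All male libraries lay above all female ones, the lowest being 1.19 times the highest. Means were 129 ± 9.08 and 175 ± 9.29 CPM (SD, n = 3), and the log2 fold change of 0.45, with a 95% interval from 0.19 to 0.70, did not pass.

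**Figure D2:**
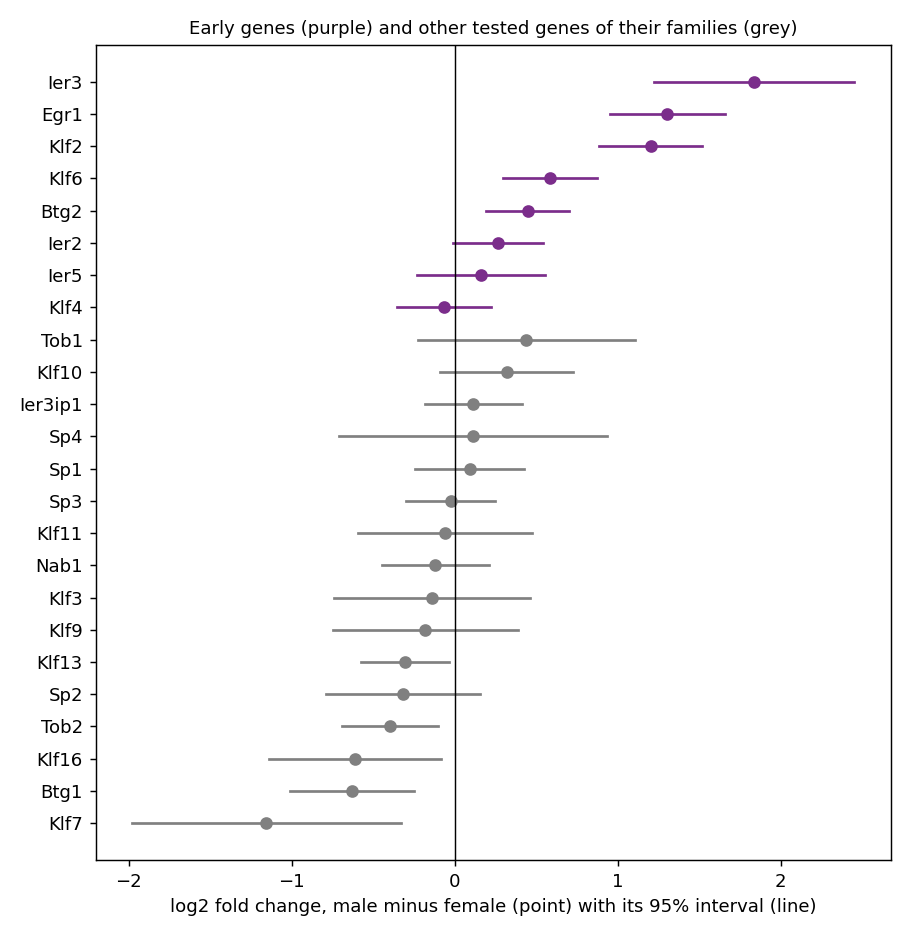
Log2 fold change of male minus female (points) with its 95% interval (lines) for the 8 tested early genes in purple and, in grey, the 16 tested genes of the other EGR, NAB, KLF, SP, IER, BTG and TOB lists. The purple points run from -0.07 for Klf4 to 1.84 for Ier3, and the grey ones from -1.15 for Klf7 to 0.44 for Tob1.

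The early genes varied within a sex as well, and in males mostly by the same libraries. Male replicate 1 had the highest male level in 8 of the 9 genes, the exception being Klf4, which was highest in male replicate 3. Male replicate 2 had the lowest male level in 8 of 9, the exception being Ier3. Deviations from the mean of the sex were taken on the log2 scale. Over the 8 tested genes their median was 0.17 in male replicate 1, -0.25 in male replicate 2 and 0.05 in male replicate 3. Over all tested genes the median was 0.01 in each. The scaling brings this all-gene median near to the same value in every library. It therefore does not measure how unusual the early genes are. The share of all tested genes that rank the male libraries this way is not given. In females, replicate 1 had the highest level in 5 of 9 genes and replicates 2 and 3 in 2 each.

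The spread within a sex differed between the genes. The SD of log2 CPM of Egr1 was 0.10 in females and 0.41 in males, and that of Klf2 was 0.23 and 0.36. For Btg2 it was 0.10 and 0.08, for Ier5 0.13 and 0.07, and for Ier3, with few female counts, 0.53 and 0.24. Over the 3780 tested genes with at least 50 CPM, the median SD was 0.12 in females and 0.18 in males. Male replicate 2 also had the lowest total count and stood apart over all genes, a feature whose part in these lower levels was not tested. Without it the log2 fold change of Egr1 and Klf2 was 1.48 and 1.37, and without male replicate 1 it was 1.18 and 1.09.

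**Figure D3:**
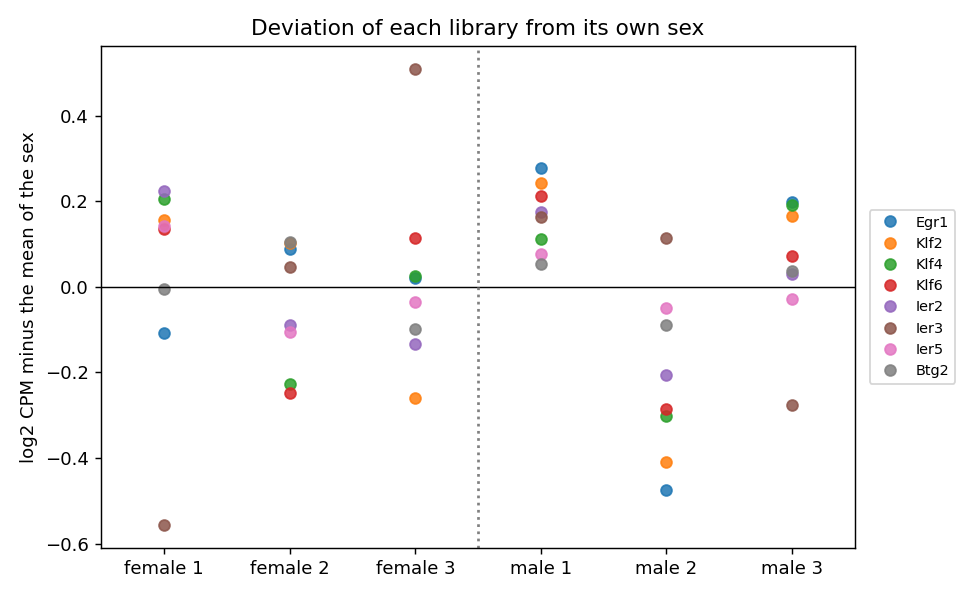
Deviation of log2 CPM from the mean of the library's own sex, for each of the 8 tested early genes (colours) in each of the 6 libraries. All 8 points of male replicate 1 lie above 0, and 7 of the 8 points of male replicate 2 lie below 0, led by Egr1 at -0.47 and Klf2 at -0.41.

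No other tested gene of the same families was called. Of 28 further EGR, NR4A, NAB, KLF, SP, IER, BTG and TOB genes in the table, 16 could be tested and 0 passed by edgeR, DESeq2 or limma-voom; at an unadjusted p under 0.05 edgeR had 0 higher and 5 lower in males, where 6.83% and 4.50% of all tested genes were. Their median log2 fold change was -0.13, against -0.003 for all tested genes, and 5 of the 16 lay above 0. Klf13, a KLF factor known from lymphocytes, had 284, 266 and 249 CPM in females and 248, 178 and 216 CPM in males, a log2 fold change of -0.31 ± 0.13 (SE). Sp3, a related factor of GC boxes, had a log2 fold change of -0.02 ± 0.13. Tob2, an antiproliferative relative of Btg2, had 119, 116 and 115 CPM in females against 95.5, 69.8 and 96.4 CPM in males and a log2 fold change of -0.40 ± 0.14. Nab1, a corepressor of EGR1, and Ier3ip1, an endoplasmic reticulum gene named for the binding of its protein to IER3, had -0.12 ± 0.16 and 0.12 ± 0.14.

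The kinases and factors that act on early gene promoters were counted too. Of 23 tested genes, among them Srf, Elk3, Elk4, Mef2c and Creb1, 0 passed by edgeR, DESeq2 or limma-voom, and at an unadjusted p under 0.05 edgeR had 0 higher and 1 lower. Their log2 fold changes lay between -0.50 and 0.44, with a median of -0.03. Rps6ka1, a ribosomal S6 kinase, and Map2k2, a kinase of the MAP kinase cascade, had -0.03 ± 0.13 and -0.04 ± 0.12. Of 14 tested genes that act on mRNA tails, 0 passed by any of the 3 tools (0 higher and 1 lower at an unadjusted p under 0.05 by edgeR). Most of the 14 encode subunits of CCR4-NOT, the deadenylase that BTG2 recruits. Pabpc1, the poly(A) binding protein, had a log2 fold change of -0.15 ± 0.13, and Cnot6, a catalytic subunit of CCR4-NOT, had -0.10 ± 0.14.

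Lists of genes reported as targets of these factors were counted next. They too were chosen with earlier results of these data known. Their counts and the p-value below are therefore a description, and no support is drawn from them. In the KLF2 and KLF4 list, edgeR called 1 of 10 tested genes higher in males and 0 lower. Over all tested genes 0.426% were called higher in males and 0.154% higher in females. At an unadjusted p under 0.05 edgeR had 1 higher and 1 lower in this list, where 6.83% and 4.50% of all tested genes were. The called gene was Cd69, which encodes an early activation antigen that keeps the S1P receptor off the cell surface. It had 95.03, 88.7 and 72.3 CPM in females and 148, 171 and 167 CPM in males, and its log2 fold change was 0.92 ± 0.14 (SE; adjusted p = 0.000365 by the edgeR test). Unlike Egr1 and Klf2, Cd69 was lowest in male replicate 1. Of the 7 tested genes in the EGR1 and NR4A1 list, 0 passed by the 3 tools, with 2 higher and 1 lower at an unadjusted p under 0.05 by edgeR. Cd44, an adhesion receptor, and Nfkb1, a subunit of NF-kappa-B, had log2 fold changes of -0.14 ± 0.12 and -0.08 ± 0.12.

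Early genes outside these families were counted from a further list, also chosen with earlier results of these data known. Its counts and shares are therefore a description, and no support is drawn from them. Of 30 tested, 10 rose in males, 0 fell and 20 did not pass, where 0.426% of all tested genes were called higher in males. Of the 30, 27 fold changes lay above 0 with a median of 0.54; over all tested genes 49.3% lay above 0. DESeq2 called 10 higher and limma-voom 9, neither any lower, and at an unadjusted p under 0.05 edgeR had 19 higher and 0 lower. Without male replicate 3, 4 of the 30 rose. The 4 with the smallest p were Rgs1, a brake on G-protein signals, Dusp2, a MAP kinase phosphatase, Atf3, a stress-induced factor, and Nfkbia, an inhibitor of NF-kappa-B. Atf3 had 26.6, 21.7 and 22.3 CPM in females and 78.0, 46.6 and 62.7 CPM in males, so that male replicate 2 was again the lowest male library. Dusp2 had 79.7, 86.7 and 73.9 CPM in females against 179, 199.6 and 147 CPM, with male replicate 2 the highest. Rgs1 had 13.7, 9.48 and 8.47 CPM against 38.4, 44.9 and 61.5 CPM. Rgs1, Dusp5 and Tnfaip3 were low in females, at means of 10.5, 9.42 and 11.3 CPM, close to the level that the filter on low counts asks for. Rgs1 lay below that level in female replicates 2 and 3, and Dusp5 and Tnfaip3 did not reach it in all female libraries either. All of them therefore entered the test only through their male levels.

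Likeness to the mean profile of the 8 tested early genes was measured as the root-mean-square distance between log2 CPM profiles over the 6 libraries, each centred on its own mean. Among 3774 other genes with at least 50 CPM the nearest were Dusp1 (0.096), Chmp1b (0.15), Fos (0.15), Nfkbia (0.16) and Dnajb1 (0.16), where the median distance was 0.40. Klf6 (0.13) and Btg2 (0.16) lay as near to the mean they are part of, and Ier3 (0.69) and Klf4 (0.41) farthest. Dusp1, a phosphatase of MAP kinases, had 188, 197 and 235 CPM in females and 376, 289 and 354 CPM in males. Fos, a subunit of the AP-1 dimer, had 805, 796 and 709.6 CPM in females and 1398, 945 and 1553 CPM in males. The mean profile itself was lower in female replicates 1 to 3 (-0.33, -0.39 and -0.33) than in the male ones (0.52, 0.14 and 0.40). Genes picked as near to it therefore rise in males by that choice, and no support is drawn from their calls. Nfkbia, Dusp1, Fos and Dnajb1 had log2 fold changes of 0.83, 0.73, 0.76 and 0.66 and passed. Without male replicate 3 none of them did (0.69, 0.70, 0.61 and 0.67). Dusp1 and Fos did not pass without female replicate 2 either (0.69 and 0.78), nor Fos and Dnajb1 without female replicate 3 (0.70 and 0.57). Dnajb1 also did not pass with DESeq2 (0.67) or when scaled by library size only (0.57). Chmp1b, of the membrane-scission machinery, did not pass (0.56 ± 0.16).

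Markers of other cell types were measured beside these genes, and their part in the differences was not tested. The 8 erythroid markers summed to between 95.5 and 117 CPM in females and between 221 and 366 in males, and both tested ones, Car1 and Car2, rose. The 7 markers of T and natural killer cells, cells in which Klf2 is high, summed to 129 to 149 CPM in females and 155 to 172 in males. Nkg7 made up most of this (134 ± 8.53 and 161 ± 8.29 CPM; SD, n = 3), while Cd3d had 1 count in the 6 libraries and Cd3g 6. The 8 endothelial markers summed to 109 to 140.1 CPM in females and 135 to 146 in males, with 20 counts of Cdh5 and 6 of Kdr, and none of the 2 tested passed. For the 12 markers of monocytes and macrophages, cells in which Klf4 is high, the sums overlapped, at 3413 to 3948 CPM in females and 3364 to 3732 in males, as did those of the 10 neutrophil markers (88.7 to 95.4 and 75.9 to 92.0 CPM), of which the 3 tested did not pass. Mature B cell markers summed to 3390.4 to 4277 CPM in females and 3007 to 3629 in males, mostly Ighm, and of 3 tested Ms4a1, which encodes CD20, was called lower by edgeR (13.97 ± 3.08 and 2.69 ± 0.55 CPM; SD, n = 3) but 0 by DESeq2 or limma-voom. The 9 markers of stem and multipotent progenitors summed to 516 to 575 CPM in females and 557 to 619 in males, and the 8 stromal ones to 192 to 237 and 225 to 344 CPM, highest in male replicate 2. No marker with a row in the table was at 0 in all libraries.

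Most of the 9 genes are short. In GENCODE M21 (GRCm38), none of the 9 overlaps another annotated gene on either strand. Their gene spans ran from 1240 to 20527 bases with a median of 3951, against a median of 24214 for tested genes, and 6 of 9 had at most 3 exons, as 11.1% of tested genes did. Ier2 and Ier5 have 1 exon.

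AU-rich elements in the 3' UTR shorten the life of many early transcripts. The pentamer ATTTA was in the 3' UTR of 8 of the 9 genes, all but Ier2, and in 70.4% of tested genes. Per 1000 bases of 3' UTR the median was 1.65 in the 9 genes and 1.37 in tested genes. Ier3 had 5 in 613 bases and Nr4a1 had 3 in 543. The longer form TATTTAT was in Klf2, Klf6, Ier3 and Btg2, that is in 4 of 9 against 30.2% of tested genes. The first such site of each is printed, with TATTTAT in capitals and the 7 bases on either side.
Klf2 (chr8:72320992-72321012, plus strand): agactgcTATTTATtggacct
Klf6 (chr13:5868494-5868514, plus strand): cgtctctTATTTATgccttga
Ier3 (chr17:35822485-35822505, plus strand): taattaaTATTTATgtattta
Btg2 (chr1:134077253-134077273, minus strand): gaagagcTATTTATacatgtt
Ier3 had 4 such sites, Klf6 had 2 and the others 1 each.

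**Figure D4:**
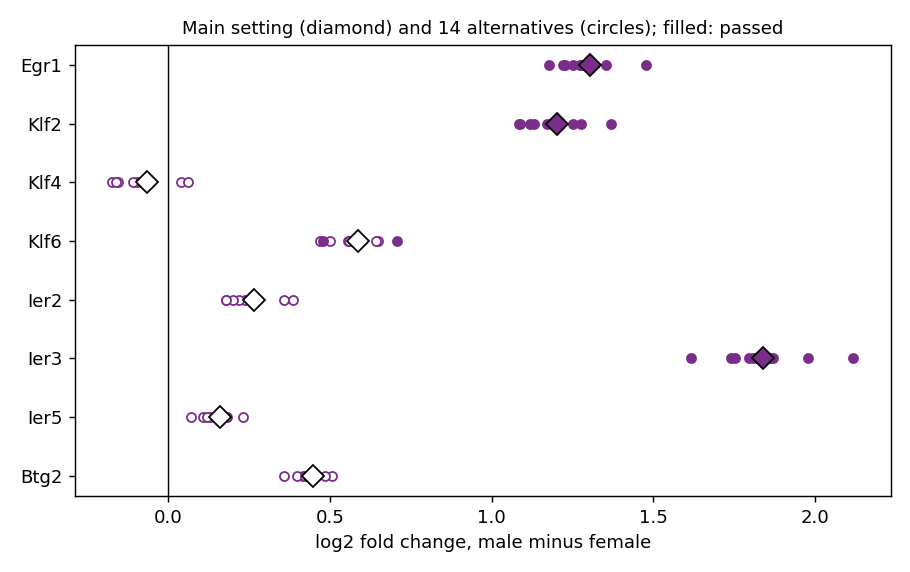
Log2 fold change of male minus female of the 8 tested early genes in the main analysis (diamonds) and under 14 alternatives of scaling, filter, tool, block or a library left out (circles), filled where the gene passed. Egr1, Klf2 and Ier3 are filled in all 14, Klf6 in 5, and the circles of Klf4 lie on both sides of 0.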

How the data were processed

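Values are raw read counts for each gene, which the authors deposited as integers without scaling, per the file headers. The submitters' processing notes list UMI-tools, Trim Galore (version 0.6.7), HISAT2 (2.2.1), featureCounts (2.0.1), DESeq2 and the builds GRCm38 and GRCh38, without saying what each was used for. No source used here says how molecular identifiers and strand were handled; PCR copies may therefore be among the counts. The barcode list names 16 samples in the pooled library, of which 10 are not analysed here.

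The filter was filterByExpr of edgeR 4.0.16 (R 4.3.3), grouped by sex, at a minimum count of 10 and a minimum total of 15. It kept 8460 genes. After TMM scaling, male minus female was tested by quasi-likelihood without covariates, and p-values were adjusted over these genes by Benjamini-Hochberg, with a threshold of 0.05. A standard error was taken from the fold change and its F value, and 95% intervals from the total degrees of freedom. Steps were tested on simulated data. Alternatives tried were 3 other scalings (RLE, upper quartile, library size), no filter, a stricter filter (10 counts throughout one sex), DESeq2 1.42.0 with independent filtering off, limma-voom (limma 3.58.1), a replicate block, and leaving out each library. Same-numbered libraries deviated together over genes of at least 50 CPM (correlations 0.13, 0.14 and 0.13 for numbers 1 to 3). Over all tested genes they did so less (0.024, 0.025 and 0.041). The numbers come from the sample titles, which do not say what a shared number marks, so the block was used only as an alternative.

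The 9 genes, the other lists and the rule for names were chosen with earlier results of these data known. Named are all 9, from each list at most 4 called genes, taken by p, or else the 2 with the highest level, the 5 genes nearest in profile, and leading markers. Genes of the inducing list given only as examples, and Dusp5, Tnfaip3, Ms4a1, Cd3d, Cd3g, Cdh5, Kdr, Egr2, Egr3, Egr4, Nr4a2, Nr4a3, Klf7 and Tob1, were named after their values were seen. Sequences are from RefSeq (GRCm38.p6) and GENCODE M21 transcripts. For each gene the longest coding transcript was used, which gave a 3' UTR for 96.0% of tested genes.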

Additional observations from a re-analysis of the deposited data

How the results depend on the processing

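Of 112 log2 fold changes of the 8 tested early genes under 14 alternatives, 105 kept their direction and side of the threshold, 5 (all Klf6) moved past it and 2 (both Klf4) changed sign. Of 280 for other named genes, 262 kept both, 10 no longer passed and 8 changed sign. With single libraries left out, the range was -0.17 to 0.060 for Klf4, -0.089 to 0.025 for Map2k2, -0.11 to 0.073 for Sp3, -0.16 to 0.032 for Rps6ka1 and -0.17 to 0.028 for Cnot6. The number of tested genes higher in males ran from 19 to 337 and in females from 4 to 78, and that of list genes other than the 9 higher in males from 5 to 14, against 11; the cause was not tested. Without a filter 81 and 35 genes were higher in males and females, with the replicate block 56 and 22. The number higher in females was 23 with library size only, 7 with DESeq2 and 8 with limma-voom. The replicate block changed no other call among the 9 genes than that of Klf6. Few counts limit Nr4a1, with 14 in females and 24 in males, and Ier3, with 36 and 74.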
